A study of Danio rerio with 416 samples.

Results

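The zebrafish genes named znf with a number from 900 to under 1200 and nothing after it were described in single cells of 50% epiboly embryos. There were 86 such genes with an odd and 85 with an even number among the 25208 rows of the full-length table. Of these, 84 odd-numbered and 81 even-numbered genes were also among the 19205 rows of the 5-prime table, and 6 were in the full-length table alone. Their numbers ran from znf970 to znf1150.

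High-numbered znf genes encode C2H2 zinc finger proteins. In such a protein each finger folds around a zinc ion held by cysteines and histidines, and fingers in tandem can read DNA sequence. Zebrafish carry a large expansion of these genes, many in dense clusters of similar copies, and genes of these clusters are known to be transcribed when the embryonic genome is activated, before gastrulation. No role is given here for single members, since none is known with certainty.

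Cells came from wild-type TLAB embryos and from MZoep embryos of the tz57 allele. The label MZoep stands for embryos mutant both maternally and zygotically for one-eyed pinhead (tdgf1), whose product Nodal ligands need as a co-receptor. Fish of each genotype were incrossed, embryos were raised at 28 °C to 50% epiboly, yolk was removed by hand, and cells were picked one by one, so each sample is 1 cell. With full-length SMART-seq2 libraries, 47 of 52 wild-type cells passed the filter on genes detected (3, 14, 18 and 12 in library preparation batches p1 to p4). All but 31 MZoep cells passed it, leaving 79, 80, 61 and 25 cells in the same batches. A further 86 of 88 MZoep cells had 5-prime libraries with UMIs, in batch p0. Each genotype is 1 sample, strain and clutch cannot be told apart from genotype, and no difference below has a replicate check. All groups share the stage and the way of picking.

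Wild-type cells had a median of 6964 genes detected and MZoep cells one of 7346. Depth relative to the median cell had medians of 0.559 and 0.732 in wild-type and MZoep cells of p2, 1.23 and 1.25 in p3, 1.15 and 1.20 in p4, and 1.39 and 1.20 in p1. It ranged from 0.0836 to 1.54 over wild-type and from 0.0728 to 3.53 over MZoep cells. The tdgf1 transcript averaged 45.4 FPKM over wild-type cells against 51.3 FPKM over mutant cells, so its level gives no check of the labels. The summed level of nanog, pou5f3 and sox19b, transcription factors of the blastula, had medians of 717.8 and 819.2 FPKM. In the 5-prime cells there were between 29246 and 73231 UMIs per cell (median 47194).

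All members (100%) were expressed at 50% epiboly in both genotypes, where expressed means detected, with an FPKM of at least 1, in 5% of cells or more. The same held for 57.5% of all rows in wild-type cells and for 59.5% in MZoep cells. Both tables list only genes with a value above 0 in at least 1 cell. Detected in at least 50% of cells were 64.9% of members in wild type, against 23.2% of all rows, and 59.6% in MZoep, against 25.3%. By UMIs in the 5-prime MZoep cells that share was 31.5% of members, against 31.3% of all rows. In at least 20% of cells 94.7% of members were detected in wild type, against 39.1% of all rows, and 95.3% in MZoep, against 41.7%. Many of them were detected in the same cell. A wild-type cell had between 4.09% and 74.9% of the members detected, with a median of 64.9%. An MZoep cell had between 2.34% and 78.9%, with a median of 60.2%. Of all 25208 rows, a median of 6964 were detected in a wild-type cell and of 7346 in an MZoep cell.

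Single members were low to moderate in level. Averaged over both genotypes, mean FPKM, which is scaled by transcript length, ran from 0.527 to 38.5 with a median of 5.43. There were 41 members with a mean of 10 FPKM or more and 7 with a mean under 1. How many of all genes pass these bounds is not given here. The median member nevertheless lay above the median of all expressed genes. For wild type these medians were 5.73 against 2.87 FPKM, and for MZoep 4.68 against 3.37 FPKM. The level was spread over many genes, as the 8 highest held 19.5% of the summed level and 32 members were needed to reach 50% of it.

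The 74 znf genes with a number under 900 served as a comparison set. They were chosen by name alone, and their protein class was not checked. Of these, 64 were expressed in wild type (86.5%) and 64 in MZoep, and 27 (36.5%) and 29 (39.2%) were detected in at least 50% of cells. Among the expressed genes, the low-numbered genes had a median level of 4.0 FPKM (wild type) and 4.76 FPKM (MZoep), against 5.73 and 4.68 FPKM for the high-numbered members.

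The member with the highest mean was znf977. Over the wild-type cells its FPKM ran from 0 to 153.8 with a median of 44.03, and over the MZoep cells from 0 to 221.9 with a median of 18.1. Detection was in 97.9% of the wild-type cells (exact 95% interval from 88.7 to 99.95) and 91.8% of the mutant cells (87.7 to 94.9). The ranges overlapped, and it was detected in most cells of either genotype.

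For znf1122, wild-type cells ran from 0 to 160.5 FPKM (median 46.7) and MZoep cells from 0 to 108.2 (median 17.3). For znf1041 the ranges were 0 to 198.2 (median 20.98) and 0 to 175.3 (median 31.9). For znf1109 they were 0 to 125.8 (median 29.5) and 0 to 155.5 (median 18.8). Of these, znf1041 was the one with the higher median in MZoep.

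The other members of the highest 8 by mean were znf1060, znf1065, znf1099 and znf995. Their wild-type medians were 27.3, 34.6, 40.1 and 24.4 FPKM, and their MZoep medians were 20.9, 10.4, 9.11 and 17.8 FPKM. All 8 had cells at 0 in both genotypes. All 8 were detected in at least 84.9% of the cells of each genotype, so the leading members were seen in most cells rather than in a small subset.

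Summed over the members, the level was lower in MZoep than in wild type in each batch. In p2, the summed FPKM per cell ran from 1262 to 2512 in wild type (median 2091) and from 631.7 to 2230 in MZoep (median 1523). In p3 it ran from 393.4 to 1785 (median 1328) and from 223.96 to 1777 (median 1071). In p4 it ran from 439.3 to 1783 (median 1504) and from 605.8 to 1767 (median 911). The 3 wild-type cells of p1 were at 1094, 1475 and 1713, against a median of 1036 over 79 MZoep cells (159.4 to 2378).

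The ranges of the genotypes overlapped in every batch. The batch-weighted mean of the sum was 1501 FPKM for wild type against 1191 FPKM for MZoep, a log2 ratio of -0.33. Within p1 to p4 the ratio of the sums was -0.46, -0.39, -0.19 and -0.39. It lay between -0.40 and -0.29 when 1 batch was left out, and was -0.24 without the 8 highest members and -0.40 after the 10 highest rows of the table were left out and the rest rescaled. The summed level of the low-numbered znf genes was 454.9 and 530.2 FPKM, a ratio of 0.22, with -0.20, 0.37, 0.42 and -0.12 within p1 to p4. In the median cell the members took 0.255% of the summed FPKM in wild type and 0.206% in MZoep.

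**Figure D1:**
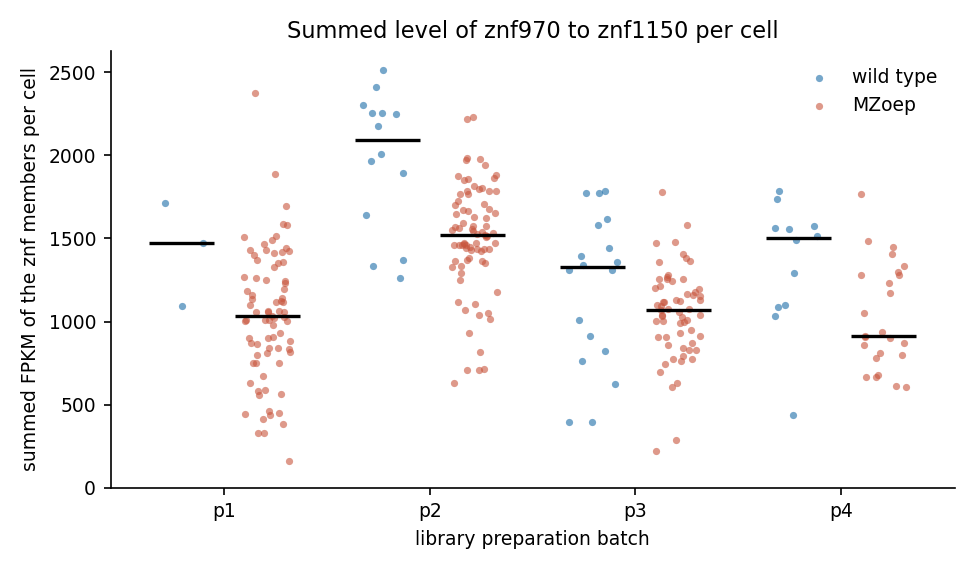
Summed FPKM of the znf members in each full-length cell (points), by library preparation batch (x axis) and genotype (blue, wild type; red, MZoep); black bars are medians. The wild-type median lies above the MZoep median in each batch, at 2091 against 1523 in p2, 1328 against 1071 in p3 and 1504 against 911 in p4, and the cells overlap.

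The members did not all differ in the same direction. Among them, 23 were at least 2-fold lower in MZoep (13.5%, against 2.54% of the 15831 genes expressed in at least 1 genotype) and 5 were at least 2-fold higher (2.92%, against 5.15%). With a pseudocount of 10 FPKM in place of 1, 2 members were lower (1.17%, against 0.272% of all genes) and 1 was higher (0.585%, against 0.259%). The share of higher members was then above that of all genes, but it rests on 1 member. With 0.1 FPKM, 34 were lower (19.9%, against 7.45%) and 8 higher (4.68%, against 15.1%). Without batch p3, 29 were lower (17%, against 3.7%) and 9 higher (5.26%, against 6.33%). A lower mean in MZoep was seen for 60.8% of members, against 39.4% of all genes tested. The median log2 ratio was -0.16, against 0.12 over all genes tested and 0.20 over 66 low-numbered znf genes, of which none was at least 2-fold lower and 3 were at least 2-fold higher. The central 50% of member ratios lay between -0.65 and 0.27, and that of all genes between -0.18 and 0.44. The ratios of single members ran from -2.26 to 2.58.

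Within p2, p3 and p4, 57 members were lower in MZoep in all 3 batches (33.3%, against 8.62% of all genes tested) and 28 were higher in all 3 (16.4%, against 24.3%). Of the 23 members at least 2-fold lower, 22 were lower in all 3 of these batches (12.9% of members, against 1.71% of all genes tested). The exception was znf988, which was higher in MZoep in p2 (1.16) and lower in p3 (-2.45) and p4 (-1.76). All 5 members at least 2-fold higher were higher in all 3 batches (2.92%, against 4.38%). The median over members was 0.01, -0.29, -0.01 and -0.16 within p1 to p4, and over all genes 0.19, 0.21, 0.27 and 0. The call is set at a log2 ratio of -1, and the members just inside and just outside it were at -1.0 and -0.97.

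**Figure D2:**
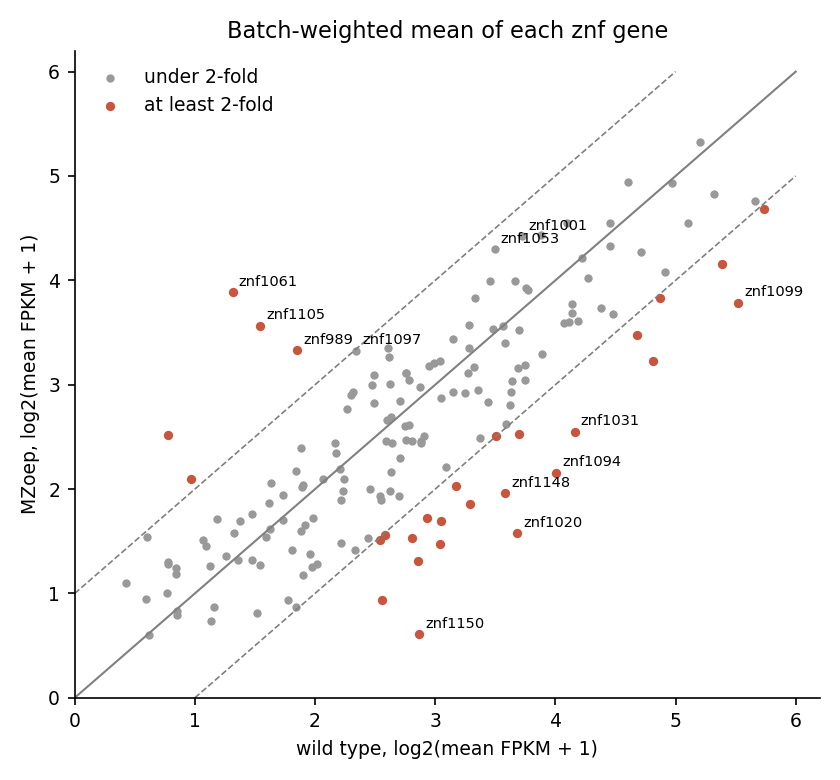
Batch-weighted mean of each of the znf members as log2(FPKM + 1) in wild type (x axis) and MZoep (y axis); the solid line marks equal levels and the dashed lines a 2-fold difference. Red points are the 23 genes below the lower line and the 5 above the upper line; genes named by the highest and lowest ratios are labelled.

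The 6 members with the lowest ratios under the naming rule were znf1150, znf1020, znf1094, znf1099, znf1148 and znf1031. In wild-type cells znf1020 ran from 0 to 38.5 FPKM (median 10.8) and in MZoep cells from 0 to 21.3 FPKM (median 0). Detection was in 82.98% of the wild-type cells (69.2 to 92.4) and 40.4% of the mutant cells (34.2 to 46.8). It was thus detected in a larger share of wild-type cells, while the ranges overlapped. A cell without detection may still hold the transcript, since depth differed widely between cells. The means were 11.8 and 1.99 FPKM (log2 ratio -2.10; -1.87, -1.87 and -2.75 within p2, p3 and p4).

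For znf1094, wild-type cells ran from 0 to 42.1 FPKM (median 14.04) and MZoep cells from 0 to 28.2 FPKM (median 1.98). The share of cells with detection was 91.5% (79.6 to 97.6) and 62.9% (56.5 to 68.9). Its ratio was -1.85, and it was lower in MZoep in every batch (-2.31, -1.90, -1.29 and -2.30 in p1 to p4).

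Transcripts of znf1099, which was also among the highest by mean, ran from 0 to 145.1 FPKM in wild-type cells (median 40.1) and from 0 to 87.3 FPKM in MZoep cells (median 9.11). Its share of cells was 89.4% in wild type (76.9 to 96.5) and 91.02% in MZoep (86.7 to 94.3). The shares were close, while the median level was higher in wild type. Its ratio was -1.73, with -1.91, -1.30 and -2.14 within p2, p3 and p4, but 0.20 within p1, where the 3 wild-type cells had a mean of 8.40 FPKM.

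For znf1031, wild-type cells ran from 0 to 58.5 FPKM (median 13.5) and MZoep cells from 0 to 35.6 FPKM (median 2.33), with a ratio of -1.61. For znf1148 they ran from 0 to 54.1 FPKM (median 6.63) and from 0 to 26.5 FPKM (median 0.70), with a ratio of -1.62. Both were lower in MZoep in every batch, of which the naming rule left only p1 free to differ.

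The lowest ratio of all members belonged to znf1150, but it rested on few cells. It ran from 0 to 118.8 FPKM in wild-type cells and from 0 to 22.8 FPKM in MZoep cells, and the median was 0 in both. Detection was in 14 wild-type cells (29.8%, 17.3 to 44.9) and 19 mutant cells (7.76%, 4.73 to 11.9). Its ratio was -2.26, and -1.77 without its highest cell in each genotype, a step that weighs more on the fewer wild-type cells. It was under 2-fold as a difference of mean log2 values (-0.90) and with a pseudocount of 10 FPKM (-0.63). That pseudocount also put znf1020 (-0.87), znf1094 (-0.90), znf1148 (-0.70) and znf1031 (-0.85) under 2-fold, but not znf1099 (-1.27). In p1 the 3 wild-type cells were all at 0 for znf1150.

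The 6 members with the highest ratios under the naming rule, which asks for a mean of at least 5 FPKM in a genotype, were znf1061, znf1105, znf989, znf1097, znf1053 and znf1001. Their shared sign in p2, p3 and p4 was again set by the rule. In wild-type cells znf1061 ran from 0 to 14.1 FPKM (median 0) and in MZoep cells from 0 to 124.6 FPKM (median 9.93). Detection was in 38.3% of the wild-type cells (24.5 to 53.6) and 77.1% of the mutant cells (71.4 to 82.3). The highest wild-type cell was above the MZoep median, so the cells of the genotypes overlapped. Its means were 1.49 and 13.8 FPKM, a ratio of 2.58, and the ratio was 2.30, 3.26, 1.75 and 2.82 within p1 to p4.

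For znf1105, wild-type cells ran from 0 to 19.5 FPKM (median 0.30) and MZoep cells from 0 to 108.7 FPKM (median 5.13). The share of cells was 40.4% (26.4 to 55.7) and 65.7% (59.4 to 71.6). Its ratio was 2.02, with 2.41, 1.77 and 3.09 within p2, p3 and p4 and 0.35 in p1. Like znf1061, it was higher in MZoep in every batch. With a pseudocount of 10 FPKM znf1105 (0.81) and znf989 (0.60) were under 2-fold and znf1061 (1.05) was not.

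For znf989, wild-type cells ran from 0 to 39.1 FPKM (median 0) and MZoep cells from 0 to 65.3 FPKM (median 1.17), with a ratio of 1.48. Its ratio varied from 0.55 in p3 to 3.52 in p2, where all 14 wild-type cells were at 0. The other 2 members at least 2-fold higher, znf1147 (1.74; means 0.711 and 4.73 FPKM) and znf1004 (1.13; means 0.957 and 3.28 FPKM), were below the level the rule asks for. The ratios of znf1097 (0.98), znf1053 (0.80) and znf1001 (0.70) were under 2-fold. The share of cells with znf1001 was 89.4% in wild type (76.9 to 96.5) and 87.4% in MZoep (82.5 to 91.2).

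**Figure D3:**
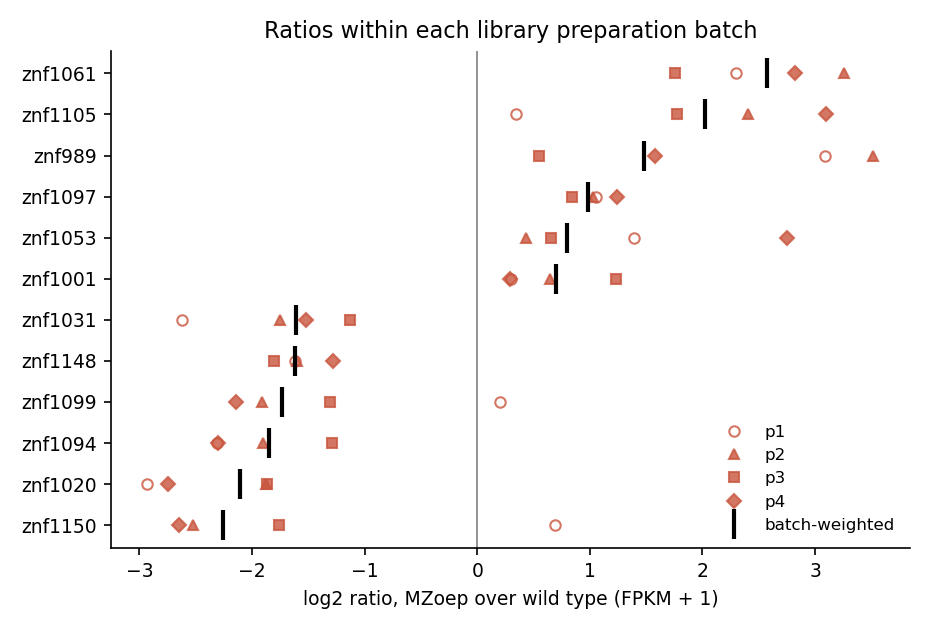
Log2 ratio of MZoep over wild type (x axis, FPKM + 1) of the 12 members with the lowest and highest ratios under the naming rule, within each library preparation batch (symbols; open circles mark p1, with 3 wild-type cells) and batch-weighted (black bars). Within p2, p3 and p4 each gene keeps 1 side of 0 by the rule; in p1 znf1099 (0.20) and znf1150 (0.69) lie on the other side.

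Other gene groups differed between the same cells. Of all genes tested, 5.15% were at least 2-fold higher in MZoep and 2.54% at least 2-fold lower. Counting only genes on that side within each of p2, p3 and p4, these shares were 4.38% and 1.71%. Of 13 tested genes of the enveloping layer, the epithelium covering the embryo, 9 were at least 2-fold higher in MZoep, and their summed FPKM ran from 38.5 to 1411 in wild-type cells and from 10.4 to 17139 in MZoep cells. Of 21 genes of the margin and of Nodal signalling, 17 were at least 2-fold lower. Of 9 germ cell genes 3 were at least 2-fold higher, and of 5 yolk syncytial layer genes 1 was higher and 1 lower. Among 21 early zygotic genes, 3 met the 2-fold bound on the lower side (14.3%, against 13.5% of members). On the higher side 2 met it (9.52%, against 2.92%). The share of lower members was thus no larger than that of this list, which rests on 3 genes. The median log2 ratio of the list was 0.24, against -0.16 over members. Of 15 maternal oocyte genes 5 were at least 2-fold higher (33.3%, against 5.15% of all genes), but 1 of these was higher in all of p2, p3 and p4, and the list's median within p4 was -0.29. In all of these batches 8 of the 9 enveloping layer genes, 2 of the 3 germ cell genes and all 4 ectoderm genes were higher, and 14 of the 17 margin genes were lower. All 10 tested ectoderm genes had a higher mean in MZoep, 4 of them at least 2-fold. The part of a differing mix of cells in the znf ratios was not tested.

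Sums over sets of members varied together from cell to cell. To measure this, the members were split into odd-numbered and even-numbered genes by the parity of their number, which has no known meaning. The summed level of each set was compared over the cells of a batch. Cells with a high odd sum had a high even sum, with Pearson's r of 0.88, 0.91 and 0.81 over 14, 18 and 12 wild-type cells of p2, p3 and p4, and of 0.77, 0.67, 0.85 and 0.72 over 79, 80, 61 and 25 MZoep cells of p1 to p4. The odd and even sums of the low-numbered znf genes, which hold fewer genes, had an r of 0.41 averaged over wild-type batches and 0.26 over MZoep batches, against 0.87 and 0.75 for the members. These are descriptions over cells that share a library preparation, and both sums come from the same library. No sums of as many other genes were compared, so such r are not shown to be particular to the members.

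Full-length cells with more genes detected had higher sums, with r between 0.52 and 0.65 in all batches but p4 (0.15 in wild type and 0.18 in MZoep), while in the 5-prime cells the r was -0.10. After the linear dependence on the number of genes was removed, the correlation of the odd and even sums was 0.85 in wild type and 0.68 in MZoep. The low-numbered znf genes, which are fewer, then had 0.06 and 0.19 averaged over batches. The correlation for the members was 0.85 and 0.73 without the 8 highest members. Leaving out the 2 cells farthest from the median of each batch gave 0.72 and 0.70. In wild-type p4 alone it gave 0.37, so the value of that batch rests on those cells.

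In the 5-prime cells, where counts are of UMIs, the odd and even sums also varied together. Their r was 0.68 over 86 cells, 0.68 with the number of genes removed and 0.69 without the 2 farthest cells. It was 0.53 when each cell was thinned to 25000 UMIs. For the odd and even sums of the 70 low-numbered znf genes, fewer than the members, the r was -0.07. In thinned cells the summed member count had a lowest value of 56, a median of 94 and a mean of 96.8. Its variance was 4.62 times its mean, where counting alone gives 1, and 2.85 times the sum of the single genes' variances. For the low-numbered znf genes, which are fewer, these values were 1.61 and 0.843.

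**Figure D4:**
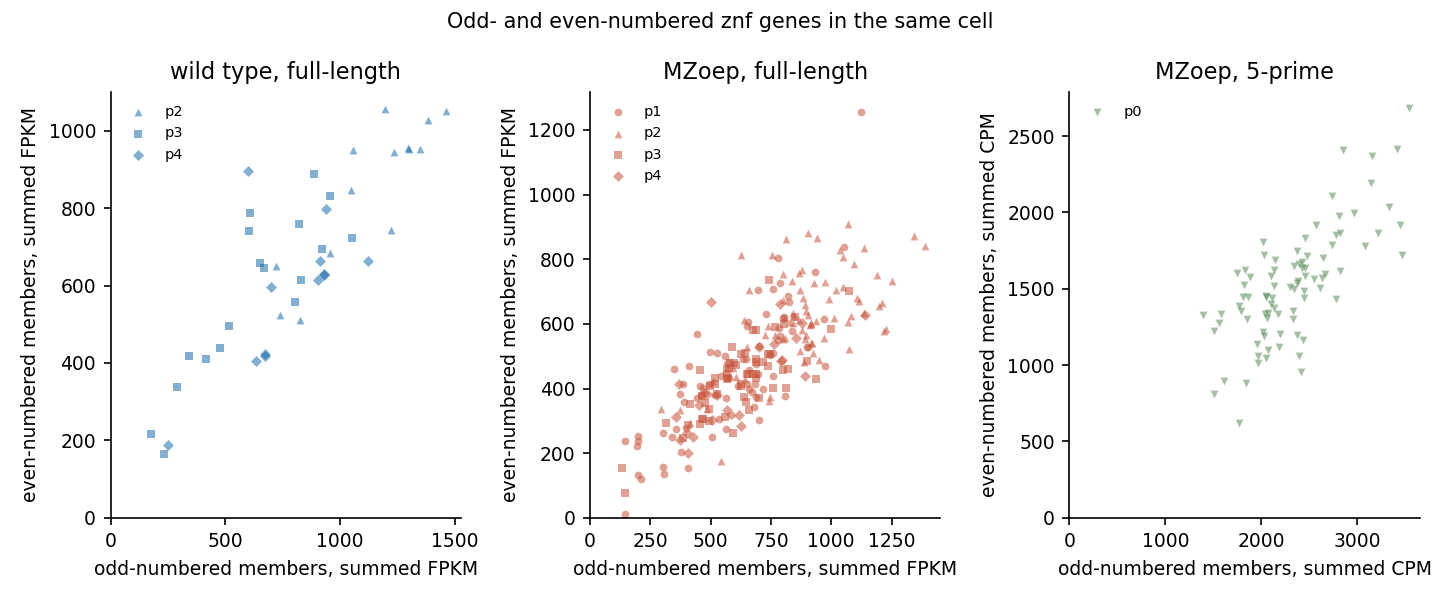
Summed level of odd-numbered (x axis) and even-numbered znf members (y axis) in the same cell, in FPKM for full-length cells and in counts per 1000000 UMIs (CPM) for 5-prime cells; each point is 1 cell and symbols are batches. The sums rise together in all panels, with r averaged over batches of 0.87 in wild type and 0.75 in MZoep, and of 0.68 in the 5-prime cells.

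Between single members the correlation was weak. Over the members detected in at least 20% of wild-type cells the median pairwise r was 0.12, against 0.06 over the 9855 genes with that share. In MZoep it was 0.08, against 0.04 over 10505 genes, and in 5-prime cells 0.02, against 0.01. With the number of genes removed, the values for members were 0.04, 0.02 and 0.01, against 0.003, 0.002 and 0.0004 over all genes. Before that correction the low-numbered znf genes had 0.08, 0.05 and 0.02, the last close to the value of the members. After it the low-numbered genes had 0.0106, 0.0029 and -0.0035. In sparse data such values are no finding for a single pair. Of 13203 member pairs in MZoep cells, 84.8% had an r above 0, against 72.3% of the pairs of all 10505 genes, and 0.704% had an r over 0.3, against 0.13%. These shares, and the r of the pairs named next, were taken without removing the number of genes.

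The 3 most correlated pairs in full-length MZoep cells were znf1120 with znf1136 (0.60), znf1125 with znf1126 (0.60) and znf1000 with znf1131 (0.57). In wild type their r was 0.34, 0.75 and 0.44. In the 5-prime cells it was 0.53 for the pair of znf1120 and znf1136, and 0.04 for znf1125 with znf1126. There were 29 UMIs of znf1126 in 20 cells, which is too few to read a low r as a difference from full-length cells. No 5-prime value is given for znf1000 with znf1131, since znf1131 had 6 UMIs in 4 cells.

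How reads shared by near-identical copies were assigned to members is not stated. At low levels, whole reads give a gene FPKM values in steps of the size of a single read. Among genes seen in 10% to 50% of cells, 24.9% of the values above 0 of 48 members lay below 0.75 of a read, against 14.9% for 7052 other genes. Within 10% of exactly 1 read lay 13.8% and 20.1% of the values. The size of a single read was estimated for each gene from its own values and is not known. Members detected in more cells were not covered. Levels, detection, ratios and pair correlations of single members are therefore uncertain, by an amount these shares do not measure. The part of divided reads in the number of members detected and in the joint variation was not tested.

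Some genes outside the family varied with the summed member level. Over 10342 other genes detected in at least 20% of MZoep cells, the median r with the sum was 0.12, and 5% to 95% of genes lay between -0.05 and 0.31. The median was 0.03 with the number of genes detected removed, and -0.01 in the 5-prime cells. The 10 highest were mych (0.62), a gene of the Myc transcription factor family, zic2b (0.62), a zinc finger factor of the dorsal ectoderm, ivns1abpb (0.57), the cyclin gene ccnd1 (0.57), the replication licensing gene cdc6 (0.56), the connexin gene cx43.4 (0.56), the SoxB1 gene sox3 (0.55), the co-activator gene cited4b (0.55), the RNA-binding protein gene khdrbs1a (0.54) and the chaperone gene hspa8 (0.54). Within p4 of MZoep their r ran from 0.03 for ccnd1 and 0.16 for sox3 to 0.66 for mych. In the other batches the lowest was 0.46, for ivns1abpb in p3. With the number of genes detected removed, the r of these 10 genes in MZoep ran from 0.43 for ivns1abpb to 0.57 for zic2b. In wild type it ran from 0.40 for ccnd1 to 0.83 for zic2b. In the 5-prime cells it was lower, from -0.14 for hspa8 to 0.27 for sox3 and 0.26 for ivns1abpb. These 10 genes were detected in 98.4% to 100% of MZoep cells, with MZoep means from 92.2 FPKM (ivns1abpb) to 1298 FPKM (khdrbs1a). The other genes ranked needed detection in only 20% of cells. The part of level and detection in this ranking was not tested.

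The lowest of these correlations belonged to ac024175.4, a row with means of 245261 and 230356 FPKM, at -0.37 in MZoep and -0.69 in wild type. Within p1 to p4 of MZoep it was -0.10, -0.59, -0.26 and -0.80. FPKM values are relative, so a larger share of that row leaves a smaller share for all others together. The part of this scaling in the r was not tested. After the 10 highest rows were left out and the rest rescaled, the correlation of the odd and even sums was 0.81 in wild type and 0.72 in MZoep. Next lowest was mid1ip1a, at -0.34 in MZoep, -0.39 in wild type and -0.34 in the 5-prime cells. The others were slc14a2 (-0.31), zgc:193505 (-0.31) and otud4 (-0.30), for which the 5-prime r was 0.15, -0.13 and 0.13.

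Summed ectoderm genes went with the summed member level, with r of 0.78 in wild type, 0.61 in MZoep and 0.21 in the 5-prime cells. After rescaling it was 0.72 in wild type and 0.53 in MZoep. The ectoderm genes include sox3 and zic2b, which are among the most correlated genes above, so the r of this list is not separate from theirs. Summed S phase genes had 0.65, 0.60 and 0.12. The 3 genome activation factors nanog, pou5f3 and sox19b, which open the embryonic genome to transcription, had 0.81, 0.50 and 0.10. Margin genes had -0.31, 0.15 and -0.31, enveloping layer genes -0.22, -0.28 and -0.16, germ cell genes 0.19, -0.22 and -0.40, and maternal oocyte genes 0.04, 0.05 and -0.20. The low-numbered znf genes had 0.70, 0.25 and -0.18. Of the other lists, early zygotic genes had 0.33, 0.31 and 0.10, G2 and M phase genes 0.65, 0.55 and 0.07, heat shock and immediate early genes 0.69, 0.32 and 0.07, p53 and apoptosis genes 0.55, 0.21 and 0.07, yolk syncytial layer genes -0.15, -0.16 and -0.06, and housekeeping genes 0.59, 0.15 and -0.12. With the number of genes detected removed, ectoderm genes had 0.74, 0.58 and 0.20, S phase genes 0.57, 0.52 and 0.10, and genome activation factors 0.75, 0.39 and 0.09. Maternal oocyte genes then had -0.15, -0.07 and -0.18, margin genes -0.27, 0.04 and -0.32, enveloping layer genes -0.03, -0.21 and -0.20, germ cell genes 0.10, -0.31 and -0.39, and low-numbered znf genes 0.52, 0.10 and -0.16. The sign for maternal genes in full-length cells thus depended on that correction.

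In the 5-prime cells, whose counts are not divided by gene length, 93.9% of members had a UMI in at least 5% of cells, against 72% of all rows. In at least 50% of cells 52 members did (31.5%, against 31.3%), and after thinning to 25000 UMIs 29 did (17.6%, against 24% of all rows). In at least 5% of cells 83.6% of members had a UMI after thinning, against 65.8% of all rows. A cell had UMIs of 46 to 89 members (median 65). The number of all rows with a UMI per cell is not given here, so that count has no background. Their summed level was 2317 to 6228 CPM with a median of 3718. The 10 members seen in fewer cells were znf981, znf998, znf1013, znf1016, znf1025, znf1038, znf1093, znf1112, znf1113 and znf1131.

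The 5 highest members in the 5-prime cells were znf1099, znf1035, znf1041, znf1066 and znf1057. There were 1 to 32 UMIs of znf1099 per cell (median 8), or 191.9 CPM in all (Poisson interval 178.6 to 205.8, counting error only), and it was in all 86 cells. The others were at 150.5, 142.1, 141.9 and 140.9 CPM and in 84, 85, 85 and 83 cells. Of these, znf1041 and znf1099 were also among the 8 highest by FPKM.

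The order of the members differed between library types. Across the members in both tables, log2 CPM correlated with log2 mean FPKM of MZoep cells at 0.47 and of wild-type cells at 0.38, against 0.91 and 0.87 over 18980 genes, which span a wider range of levels. Genes are not independent replicates. Mean FPKM of the 2 genotypes correlated at 0.79 over the members and 0.97 over all genes.

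Among members chosen after their values were seen, znf981 was at 22.4 FPKM in full-length MZoep cells but had 0.246 CPM and was in 1 of 86 5-prime cells. Conversely, znf1080 was at 0.916 FPKM and 98.5 CPM, in 27.8% of full-length MZoep cells and 97.7% of 5-prime cells, and znf1068 was at 1.41 FPKM and 112.6 CPM. The ratio of znf1080 between the genotypes was -1.62, from full-length cells alone. Of the highest members by FPKM, znf1122 and znf1109 had 17 and 11.3 CPM.

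The members with the highest ratios differed in level in the 5-prime MZoep cells, where the median member was at 11.1 CPM and the median row at 8.37 CPM. There were 71.9 CPM of znf1061 (63.9 to 80.7) in 88.4% of cells (79.7 to 94.3), and 74.6 CPM of znf1105 (66.5 to 83.5) in 89.5% of cells (81.1 to 95.1). For znf1001 there were 84.7 CPM in 90.7% of cells. For znf989, znf1097 and znf1053 there were 19.5, 19.5 and 22.7 CPM in 44.2%, 46.5% and 46.5% of cells, for znf1147 8.13 CPM in 26.7% and for znf1004 4.43 CPM in 11.6%. Of the members with the lowest ratios, znf1020 had 1.48 CPM (0.542 to 3.22) in 5 of 86 cells and znf1150 2.96 CPM (1.53 to 5.16) in 9 cells. In contrast, znf1031 had 51.97 CPM and znf1099 was the highest of all members. No wild-type 5-prime libraries were analysed here, so the genotype differences have no second measurement.

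**Figure D5:**
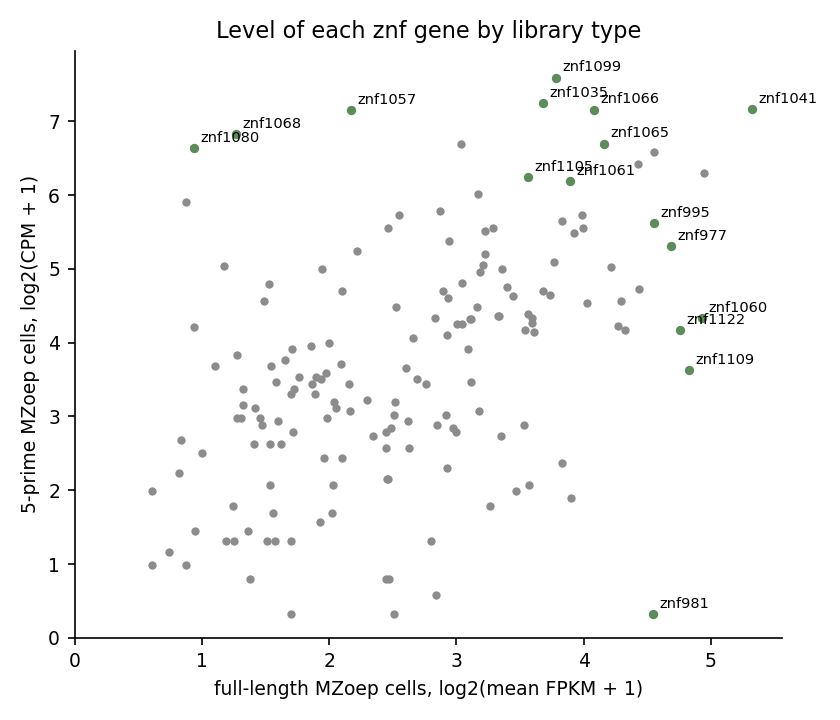
Level of each znf member in both tables, in MZoep cells by library type, as log2(mean FPKM + 1) in full-length cells (x axis) and log2(CPM + 1) in 5-prime cells (y axis). The members scatter widely (r = 0.47); znf1080 and znf1068 are high on the y axis alone and znf981 on the x axis alone.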

How the data were processed

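Genotype and library preparation batch were taken from the labels. The full-length values are FPKM per gene and cell as deposited by the authors, and the 5-prime values are counts of unique molecular identifiers (UMIs) as deposited; Bowtie2, RSEM and build GRCz10 are named in the submitters' processing notes. The sources used here do not state how reads or UMIs matching several near-identical genes were assigned, or whether strand was used. In the count table, 328 columns belong to full-length cells, contain no value above 0 and were set aside.

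A cell was kept if 1500 genes or more reached an FPKM of 1 (5-prime: 500 genes with a UMI). No doublet caller and no clustering was run. The labels name no embryo or clutch, so each genotype is 1 sample and no p-value or standard error was made from cells. For each gene, batch means were averaged with the same weights for wild type and MZoep (p1 7.85%, p2 32.4%, p3 37.8%, p4 22%). Ratios are log2 of the MZoep mean plus 1 FPKM over the wild-type mean plus 1 FPKM, so they are too small for genes of low level. Correlations were computed over cells within batches of at least 10 cells on log2(value + 1) and averaged by cell number. Relative depth came from the spacing of low FPKM values; absolute depth is unknown. UMI cells were also thinned to 25000 UMIs (seed 1). Shares have exact 95% intervals, which cover counting error over cells only and do not compare genotypes. Shares of cells, and medians and ranges of single members, pool the cells of all batches without weights. Batch p1 gave 79 of the MZoep cells but 3 of the wild-type cells. Functions were tested on simulated data. Python 3.11.15, numpy 2.4.6, pandas 2.3.3, scipy 1.17.1 and matplotlib 3.10.9 were used.

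Named genes followed a rule: the 8 members with the highest mean, the 6 highest and 6 lowest ratios among members of at least 5 FPKM in a genotype, detected in at least 20% of its cells or of the other's, with 1 sign in p2, p3 and p4, the 5 with the highest CPM, the 3 most correlated pairs, znf1061, and the 10 most and 5 least correlated other genes. Members and lists were chosen with earlier results of these data known. RefSeq's GRCz12tu annotation matched 42 members by symbol (24.6%), under the 80% needed, so a check of chromosomal position was void and no coordinates are given. Sequences of these genes were not used here.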

Additional observations from a re-analysis of the deposited data

How the results depend on the processing

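The number of members at least 2-fold higher in MZoep, 5, was 8 with a pseudocount of 0.1 FPKM, 1 with 10 FPKM and 9 without batch p3. Of all genes, 15.1%, 0.259% and 6.33% passed under these settings, against 4.68%, 0.585% and 5.26% of members. The number at least 2-fold lower, 23, was 2 with a pseudocount of 10 FPKM, where 0.272% of all genes passed. It lay between 18 and 34 under the other alternatives: a pseudocount of 0.1 FPKM, no filter or a stricter filter on genes or cells, means of log2 values, no batch weights, each batch left out, the highest cell of each gene left out, and rescaling. The share of all genes called lower also varied, from 1.06% with means of log2 values to 7.45% with a pseudocount of 0.1 FPKM. The shares of members under these 2 settings were 10.5% and 19.9%. The median log2 ratio kept its sign under all 14 alternatives and was -0.06 without the highest cells, -0.07 without p2 and -0.27 without p3. Over all genes tested the median was then 0.25, 0.11 and 0.06, against 0.12 in the main setting. Leaving out the highest cell weighs more on wild type, which had fewer cells. Of the 308 ratios of 22 named members under these alternatives, 4 had the other sign, all of members under 2-fold apart: without p2 znf1041 was at -0.03, znf1060 at 0.20 and znf1035 at 0.08, and without p3 znf1057 was at -0.12. A further 10 moved by more than the spread between batches, 8 of them with a pseudocount of 10 FPKM. With the number of genes removed, the median pairwise r was 0.0418 in wild type and 0.0232 in MZoep. Rescaling moved the correlation of the odd and even sums to 0.81 in wild type, and thinning moved it to 0.53 in 5-prime cells. Rescaling without the 10 highest rows raised the summed level by its construction, to 3561 FPKM for wild type and to 2704 FPKM for MZoep. The alternatives to the correlation of the odd and even sums, the rescaled ectoderm and margin correlations and the sums without the 8 highest members were chosen after seeing the data. No paired analysis was possible because replicate numbers only name cells, so no cell of a genotype has a counterpart in the other, and no result comes from a test. Batches, which hold cells of both genotypes, entered through weighted batch means and within-batch ratios. Sequencing depth limits the shares of cells, and 47 wild-type cells limit the ratios.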
